A study of Mus musculus with 5 samples.

Results

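Hormone genes of the mature anterior pituitary and the receptors through which the hypothalamus drives them were followed in mouse pituitaries at e12.5, a mid-gestation stage of the embryo. The set was named by gene symbol: the hormone genes Gh, Prl, Tshb, Lhb and Fshb, the releasing hormone receptors Ghrhr, Gnrhr, Trhr and Crhr1, and the thyrotropin receptor gene Tshr. Of these 10 genes, 9 were measured among 20097 gene names, and Lhb was not analysed here. The genes were picked because most of them start after this stage, and Tshr was added after its low value in one knockout library had been seen. Their changes between genotypes are therefore given as descriptions, without a test.

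The libraries came from pituitaries of B6;129 embryos in which both groups carried floxed Itgb1 alleles (Itgb1 f/f), the gene of integrin beta 1. The 2 knockout littermates, in the libraries labelled KO13 and KO16 and called libraries 13 and 16 from here, also carried Pitx1-cre, a recombinase transgene driven by a gene active in oral ectoderm and pituitary. The 3 control embryos, libraries 9, 10 and 12, had no Cre. Total RNA depleted of ribosomal RNA was sequenced from separate biological replicates, and a level is the number of tags over a gene's region per 10000000 tags sequenced, called tags from here.

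The anterior pituitary makes its hormones in separate cell types that arise from Rathke's pouch in a fixed order. Thyrotropin, luteinizing hormone and follicle-stimulating hormone share an alpha subunit, encoded by Cga, and each has a beta subunit of its own. Growth hormone, prolactin and most thyrotropin production depend on the transcription factor POU1F1, which comes on after the pouch has formed. Each releasing hormone from the hypothalamus acts on a G protein-coupled receptor carried by its target cell type.

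The libraries held between 4480809 and 6143263 reads over the listed genes. These include reads of the ribosomal precursor Rn45s. It held 14.2% and 8.9% of all tags in libraries 13 and 16, against 22.2%, 16.8% and 23.5% in controls 9, 10 and 12. Library 16 stood apart in another measure. Genes of the olfactory and vomeronasal receptors, which few tissues transcribe, had 0.472 tags per kilobase in library 13 and 1.50 in library 16, against 0.257, 0.395 and 0.156 in controls 9, 10 and 12. The density of these 406 regions was used as the background of each library. Multiplied by the length of a gene's region, it gives the reads expected from a silent gene. A gene is called above background where the exact 95% Poisson interval of its reads lay wholly above that expectation, and the interval covers counting error only. By this rule 70.3% of 19690 other genes were above background in library 13 and 73.2% in library 16, against 67.3%, 70.2% and 66.8% in controls 9, 10 and 12. The targeted gene Itgb1 stood at 446 tags in library 13 and 186 in library 16, against 273, 426 and 431 in the controls, so library 13 was above every control. With background subtracted and TMM factors, which scale for library composition, Itgb1 stood at 281 and 116 tags in libraries 13 and 16, against 404, 374 and 449.5 in the controls, so both knockout libraries were below every control on that scale. The summed neuron, mesenchyme, and infundibulum and hypothalamus markers had that order too, whereas the summed pouch, endothelial, erythroid and thyroid markers did not. The share of all genes with that order was not counted. The region of Itgb1 spans undeleted parts of the gene too, and the tissue also holds cells without Cre. All of this limits the Itgb1 level as a check of the labels. Pituitary identity was present in every library: the pouch factor Pitx1 was at 284 and 98.2 tags in libraries 13 and 16, against 97.3, 137 and 148 in the controls, and 9 of 11 measured pouch markers were above background in all 5 libraries.

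Against this background the set was close to silent. Of its 45 gene and library values, 11 were above background: 0 of 9 genes in library 13 and 3 in library 16, against 3, 3 and 2 in controls 9, 10 and 12. Gh, Prl, Fshb, Gnrhr and Trhr were above it in no library. Tshr was above it in 4 libraries, Crhr1 in 3, and Ghrhr and Tshb in 2 each. Across all genes outside the background set, 69.4% were above background in at least 3 of 5 libraries, which 2 of the 9 genes reached; 52.5% were above it in all 5 libraries, which none of the 9 reached.

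**Figure D1:**
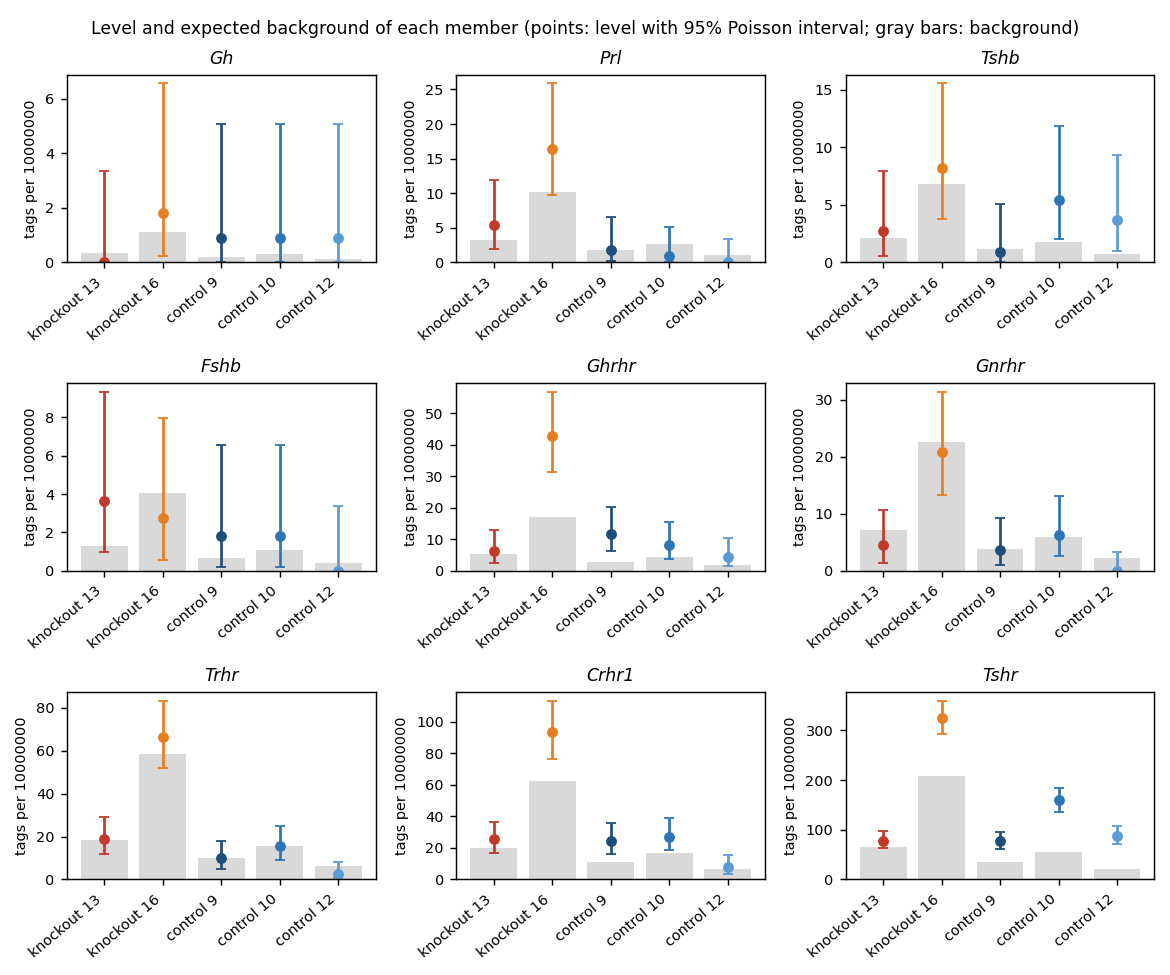
Levels of the 9 measured genes in tags per 10000000 total tags (points, with exact 95% Poisson intervals) and the level expected from background (gray bars) in knockout libraries 13 and 16 and control libraries 9, 10 and 12; each panel has its own linear axis from 0. The gray bar is highest in library 16 in every panel, and Tshr clears its bar in all 3 controls.

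Among the hormone genes, Tshb was the one above background in single libraries. Tshb (mm9 chromosome 3, 102581721 to 102586237) encodes the beta subunit of thyrotropin. Its first cells, in the rostral tip of the mouse pouch, are known to appear around this stage and not to need POU1F1. It had 2.73 tags in library 13 and 8.18 in library 16, against 0.91, 5.45 and 3.64 tags in controls 9, 10 and 12. The groups overlapped, and the higher value of library 16 came with an expectation of 7.44 reads for the 9 recovered. In controls 10 and 12 the 6 and 4 reads stood against expectations of 1.96 and 0.776 reads, ratios of 3.06 and 5.16. With a 99% interval Tshb was above background in no library, and with the olfactory receptor regions alone as background it was above in control 12 alone. Summed over each group, Tshb had 12 reads for 9.79 expected in the knockout libraries, a ratio of 1.23 with an interval of 0.634 to 2.14, and 11 reads for 4.02 expected in the controls, a ratio of 2.74 with an interval of 1.37 to 4.90. The difference between the groups was not tested.

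Prl (mm9 chromosome 13, 27150239 to 27157072) encodes prolactin, made by lactotropes that appear late. It had 5.45 and 16.4 tags in libraries 13 and 16, against 1.82, 0.91 and 0 tags in controls 9, 10 and 12. Both knockout values lay above every control. The same was true of 50.2% of the 19313 genes that averaged 1 tag or more, so that order is the usual one here. Relative to background the ratios were 1.69 and 1.60 in the knockout libraries, each with an interval that includes 1, against 1.03, 0.337 and 0 in the controls. Summed over both knockout libraries, 24 reads stood against 14.8 expected, a ratio of 1.62 with an interval of 1.04 to 2.41. Over the controls it was 3 reads against 6.08 expected.

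Gene-family context was given by the placental relatives of Prl, hormones of the trophoblast that are clustered on the same chromosome. Of 24 measured relatives, 21 were above background in no library. Their pooled ratio to background was 0.762 and 0.972 in libraries 13 and 16, against 0.761, 0.657 and 0.576 in controls 9, 10 and 12. The family thus lay at or under the background of the olfactory and vomeronasal regions in every library. Prl2c2, a proliferin, had the highest level per kilobase, with 10.9 and 20.9 tags in the knockout libraries and 4.55, 6.36 and 1.82 in the controls. Prl8a2, a decidual member of the family, came next with 2.73 and 23.6 tags in the knockout libraries, against 0 in all 3 controls.

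The upstream sequences of Prl and Tshb are shown so that the motifs of factors known to act on late hormone genes can be looked for in them. They are the 250 bases before the gene start, from RefSeq on GRCm38.p6, where 6 of the 10 genes had an entry. Capitals mark the POU1F1 core ATGNATA, the NR5A1 core AAGGTCA and the PITX core TAATCC on either strand, and the TATA box TATAAA on the strand of the gene; no marked motifs overlap.
Prl: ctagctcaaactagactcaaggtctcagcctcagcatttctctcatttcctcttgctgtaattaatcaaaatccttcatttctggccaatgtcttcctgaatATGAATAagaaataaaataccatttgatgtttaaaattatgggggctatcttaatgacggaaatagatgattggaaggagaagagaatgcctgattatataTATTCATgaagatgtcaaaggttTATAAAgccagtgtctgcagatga
Tshb: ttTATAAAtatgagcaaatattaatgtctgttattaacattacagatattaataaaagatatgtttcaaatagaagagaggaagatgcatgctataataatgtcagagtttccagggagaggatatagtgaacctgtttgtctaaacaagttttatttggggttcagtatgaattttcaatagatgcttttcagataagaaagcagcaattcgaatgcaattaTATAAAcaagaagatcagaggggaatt
The Prl window (chr13:27057320-27057569, plus strand) holds 2 POU1F1 cores, which begin 148 and 47 bases before the start, and a TATA box that begins 24 bases before it. The Tshb window (chr3:102782715-102782964, minus strand) holds 2 TATA boxes, beginning 248 and 27 bases before the start, and none of the 3 factor cores. Of 32851 mouse promoter windows of this length, 7.92% hold the POU1F1 core, 4.08% the NR5A1 core, 6.25% the PITX core and 7.59% the TATA box. Both windows are rich in A and T, with a GC content of 35.2% for Prl and 29.6% for Tshb, against a median of 52.4% over all windows. A match describes letters only.

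Pou1f1, which encodes the factor that binds the first of these cores, was itself above background in no library. It had 2.73 and 11.8 tags in libraries 13 and 16, against 1.82, 9.09 and 0.91 in controls 9, 10 and 12. Ratios to background were 0.460 and 0.629 in the knockout libraries and 0.563, 1.83 and 0.464 in the controls.

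Gh and Fshb were too short and too low for any statement on genotype. Gh (mm9 chromosome 11, 106161982 to 106162724) encodes growth hormone, and its listed region spans 743 bases. It had 0 reads in library 13, with an interval that reaches 3.35 tags, and 2 reads in library 16, against 1 read in each control. The background expectation was at most 1.22 reads in any library. Gh was the only measured gene of the set under the mean of 1 tag needed for the fit across genes. Fshb (mm9 chromosome 2, 106896698 to 106899408) encodes the beta subunit of follicle-stimulating hormone, made by gonadotropes. It had 3.64 and 2.73 tags in the knockout libraries, against 1.82, 1.82 and 0 in the controls. No more than 4 reads were recovered in any library, and every interval includes the background.

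**Figure D2:**
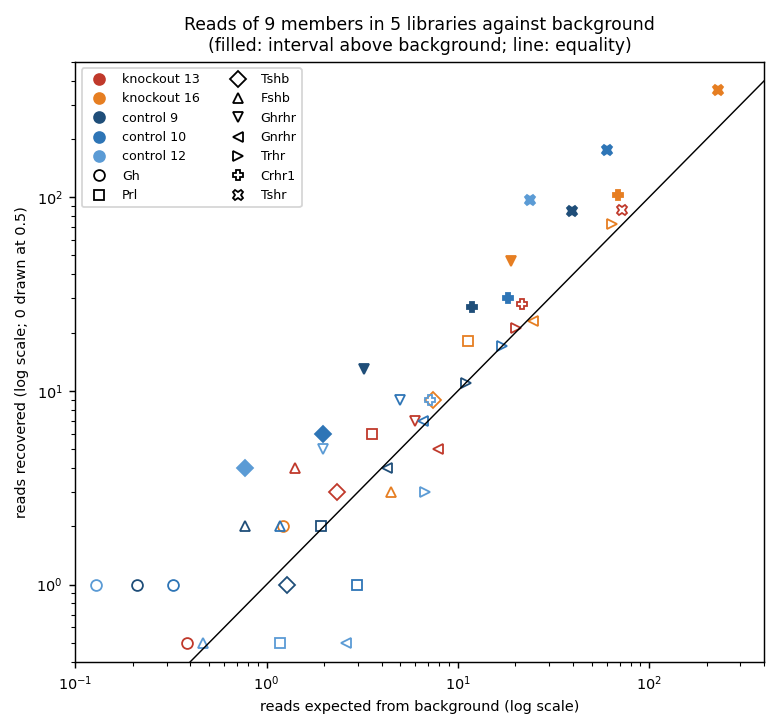
Reads recovered (vertical axis) against reads expected from background (horizontal axis), both on log scales, for 9 genes (symbols) in 5 libraries (colors); filled symbols have a 95% Poisson interval above background and the line marks equality. Trhr and Gnrhr follow the line over all libraries, and the 4 filled Tshr symbols stand above it.

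The receptor genes of gonadotropes and thyrotropes followed background closely. Trhr (mm9 chromosome 15, 44028481 to 44067458) encodes the receptor for thyrotropin-releasing hormone. It had 19.1 and 66.4 tags in libraries 13 and 16, against 10, 15.4 and 2.73 tags in controls 9, 10 and 12, so both knockout values were above every control. Its ratio to background was 1.04 and 1.14 in the knockout libraries, against 0.997, 1.004 and 0.448 in the controls. Over all libraries, 125 reads were recovered where 119 were expected. A receptor level that looks higher in the knockout libraries was thus of the size that background gives. Gnrhr (mm9 chromosome 5, 86611423 to 86626495) encodes the receptor for gonadotropin-releasing hormone and behaved alike. It had 4.55 and 20.9 tags in the knockout libraries and 3.64, 6.36 and 0 in the controls, and its 39 reads over all libraries stood against 46.1 expected.

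Ghrhr and Crhr1 encode members of the secretin receptor family that signal through cyclic AMP. Ghrhr was above background in control 9, and Crhr1 in controls 9 and 10. Among the knockout libraries, both were above it in library 16 alone. Ghrhr (mm9 chromosome 6, 55327089 to 55338524) encodes the receptor for growth hormone-releasing hormone on somatotropes. It had 6.36 and 42.7 tags in libraries 13 and 16, against 11.8, 8.18 and 4.55 tags in controls 9, 10 and 12. Ratios to background were 1.18 and 2.49 in the knockout libraries and 4.01, 1.81 and 2.55 in the controls. Summed, 54 reads stood against 24.8 expected in the knockout libraries and 27 against 10.2 in the controls, ratios of 2.18 (interval 1.64 to 2.84) and 2.66 (interval 1.75 to 3.86).

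Crhr1 (mm9 chromosome 11, 103994996 to 104036832) encodes the main receptor for corticotropin-releasing hormone, carried by corticotropes and also by many neurons. It had 25.5 and 93.6 tags in libraries 13 and 16, against 24.5, 27.3 and 8.18 tags in controls 9, 10 and 12. Ratios were 1.29 and 1.49 in the knockout libraries and 2.28, 1.65 and 1.25 in the controls. The groups overlapped in tags and in ratio. Library 16 was no longer above background for Crhr1 with the 75th percentile of single background regions, or with the receptor genes Fshr and Lhcgr as background, whereas controls 9 and 10 were above it with either. Neuron markers were above background in every library for 10 of 10 measured genes. Their summed level was 1328 and 1569 tags in the knockout libraries and 775, 1202 and 796 in the controls. After background subtraction and TMM scaling the sum was 642 and 437 tags in the knockout libraries and 898, 828 and 719.7 in the controls, so both knockout libraries were below every control on that scale. Nefl, a neurofilament gene, was at 92.7 and 29.1 tags in the knockout libraries and 31.8, 89.1 and 52.7 in the controls, and the tubulin gene Tubb3 at 48.2 and 34.5 tags against 44.5, 31.8 and 18.2. The part of neurons in the Crhr1 level was not tested.

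The Crhr1 promoter is shown beside those of Prl and Tshb (chr11:104132531-104132780 of GRCm38.p6, plus strand, 250 bases before the start, with the same marking).
Crhr1: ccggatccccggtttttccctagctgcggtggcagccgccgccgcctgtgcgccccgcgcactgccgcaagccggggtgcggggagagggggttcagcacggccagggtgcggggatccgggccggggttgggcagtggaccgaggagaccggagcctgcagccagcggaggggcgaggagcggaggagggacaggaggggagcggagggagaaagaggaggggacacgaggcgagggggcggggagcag
It holds none of the 4 motifs. Its GC content was 74.8%, above the 95th percentile of all windows at 73.6%. The windows not shown did not follow a split into hormone and receptor genes. Their GC content was 57.2% for the hormone gene Lhb, 42% for Fshb and 43.2% for the receptor gene Gnrhr. Each of these holds the letters of a TATA box, and Lhb also those of an NR5A1 core.

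Profiles nearest to that of Crhr1 over the 5 libraries belonged to Slc13a3, Tubb1 and Kcnmb3, among 14621 named genes. These averaged 5 tags or more and leave out the background regions, small RNAs and unnamed gene models. Likeness is the root mean squared difference of centred log2(tags + 1), which was 0.03 for Slc13a3 and 0.05 for each of the other two. Slc13a3 had 38.2 and 145 tags in libraries 13 and 16, against 39.1, 42.7 and 12.7 in controls 9, 10 and 12.

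Tshr was the receptor gene with the most reads, and the one above background in the most libraries. Tshr (mm9 chromosome 12, 92640233 to 92778949) encodes the thyrotropin receptor of thyroid cells, and is also known from the pars tuberalis, the upper part of the anterior pituitary. Its level was 78.2 tags in library 13 and 325 in library 16, against 77.3, 159 and 88.2 tags in controls 9, 10 and 12. Library 13 lay within the controls and library 16 above all of them. The order turned when set against background: the ratio was 1.19 in library 13 (interval 0.955 to 1.47) and 1.56 in library 16 (interval 1.40 to 1.73), against 2.16, 2.90 and 4.07 in the controls. The lowest bound among the controls was 1.73, in control 9. Both knockout ratios thus lay below every control ratio. The same order held for Gh on few reads, at 0 and 1.63 in the knockout libraries and 3.10 or more in the controls. The share of all genes with that order was not counted.

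A ratio to background also moves with the background itself, which was highest in library 16. The median gene had a ratio of 3.45 in library 13 and 1.74 in library 16, against 3.17, 3.27 and 5.61 in the controls. Library 13 was thus within the controls in the median gene and below them in Tshr, whereas library 16 was below them in both. With background subtracted and TMM factors, Tshr stood at 8.40 tags in library 13 and 117 in library 16, against 64.4, 95.7 and 70.6 in controls 9, 10 and 12. On that scale library 13 was below every control and library 16 above every control. Because Tshr was added after a low value in one knockout library had been seen, its place in the next count is a description only. Of 19690 genes, 188 (0.955%) were above background in all 3 controls and not in library 13, Tshr among them. That call depends on the background chosen: with the vomeronasal Vmn2r regions alone, or with the placental prolactin family (added after the data were seen), Tshr was above background in all 5 libraries, library 13 included. The pituitary is a mixed tissue, so fewer cells of a type and less RNA per cell cannot be told apart.

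The closest relatives of Tshr gave a measure of how long receptor genes of another tissue read. Fshr and Lhcgr encode the receptors for follicle-stimulating and luteinizing hormone and act in the gonads. Fshr had ratios of 1.19 and 1.27 in libraries 13 and 16, against 1.12, 1.09 and 1.08 in controls 9, 10 and 12. Lhcgr had ratios of 1.16 and 1.50 in the knockout libraries and 1.28, 0.881 and 1.76 in the controls. By the rule used here, both relatives were above background in library 16 and in no other library. The interval of Fshr there was 1.15 to 1.39. A call above background in library 16 was thus also made for these gonadal receptor genes. In each control the ratio of Tshr was above that of both relatives, but in control 9 the intervals of Tshr and Lhcgr overlapped, at 1.73 to 2.68 and 0.759 to 2.02. In library 13 the ratio was 1.19 for both Tshr and Fshr. In library 16 the ratios of Tshr and Lhcgr had overlapping intervals, 1.40 to 1.73 and 1.25 to 1.79. With Fshr and Lhcgr taken as the background, a choice made after the data were seen, Tshr remained above it in library 16 and in all 3 controls, and not in library 13. With the 75th percentile of single background regions, library 16 was no longer above.

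**Figure D3:**
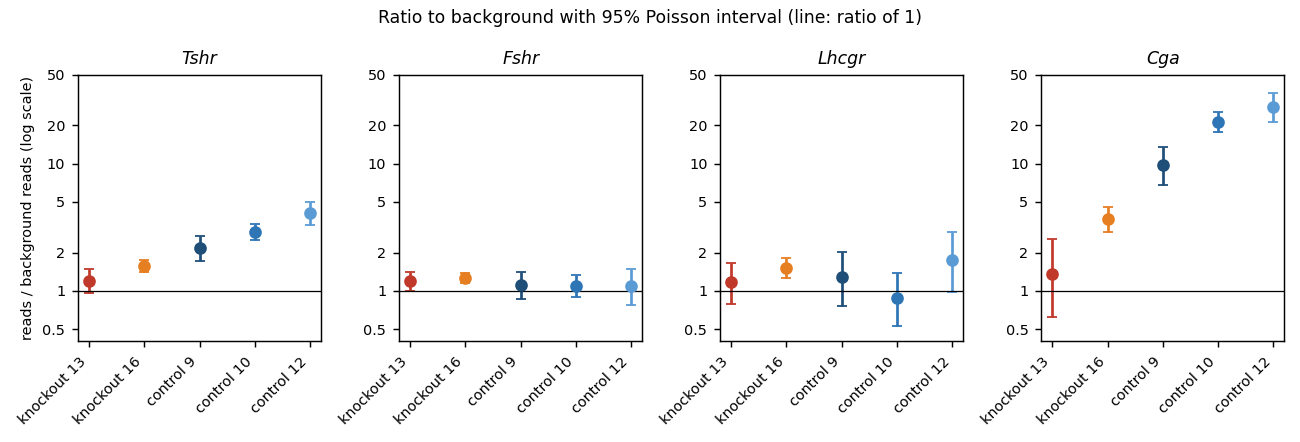
Ratio of reads to background reads (log scale) with exact 95% Poisson intervals for Tshr, its relatives Fshr and Lhcgr, and Cga, in knockout libraries 13 and 16 and control libraries 9, 10 and 12; the line marks a ratio of 1. Fshr lies between 1.08 and 1.27 in all libraries, while Tshr lies at 1.19 and 1.56 in the knockout libraries and at 2.16 or more in the controls.

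Tshr was set beside the genes of the hormone it binds. Cga, the alpha subunit of thyrotropin, was at 8.18 and 70 tags in libraries 13 and 16, against 31.8, 107 and 55.5 in controls 9, 10 and 12. In tags, Tshr, Cga and Tshb were each highest in control 10 and lowest in control 9 among the controls. That order was not particular to them: Cep128, Six6, Gnas, Prkar1a and Col3a1 had it too, and its share over all genes was not counted. Relative to background, Tshr, Cga and Tshb were each highest in control 12, with ratios of 4.07, 27.8 and 5.16. In library 13 the ratios to background were 1.19, 1.35 and 1.28 for Tshr, Cga and Tshb, and each interval includes 1. The profiles nearest to that of Tshr were those of Il17rb and C1rb, at a root mean squared log2 difference of 0.07 each, and Trim36, at 0.11. Trim36 had 30 and 116 tags in the knockout libraries and 28.2, 50 and 29.1 in the controls.

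The reads of Tshr cannot be assigned to it alone. Its region lies wholly inside the one listed for Cep128, a centrosomal gene, and the table lists all regions on the plus strand, so reads of overlapping or antisense genes cannot be separated. Cep128 had 284 and 708 tags in libraries 13 and 16, against 157, 329 and 211 in controls 9, 10 and 12. Its ratio to background was 1.74 and 1.37 in the knockout libraries and 1.77, 2.41 and 3.91 in the controls. If the reads inside Tshr were counted for both, the rest of the Cep128 region had ratios of 2.10 and 1.24 in the knockout libraries and 1.50, 2.08 and 3.80 in the controls. In library 13 that rest was within the controls while Tshr was below them. Thyroid markers were checked because thyroid cells also carry Tshr: Foxe1 was at 0 in all 5 libraries over a listed region of only 316 bases, and 5 and 5 of 9 measured markers were above background in libraries 13 and 16, against 2, 5 and 2 in controls 9, 10 and 12. Their summed level was 174 and 462 tags in the knockout libraries and 104, 180 and 79.1 in the controls, and their part in the Tshr level was not tested. Nkx2-1, a factor of thyroid and of infundibulum, was at 28.2 and 18.2 tags in the knockout libraries and 37.3, 53.6 and 36.4 in the controls. Duox2, a thyroid oxidase gene, was at 14.5 and 51.8 tags in the knockout libraries and 7.27, 18.2 and 4.55 in the controls. Markers of the adjoining infundibulum and hypothalamus were above background for 9 and 7 of 11 genes in libraries 13 and 16, and for 10, 9 and 9 in controls 9, 10 and 12. With background subtracted and TMM factors they summed to 552 and 684 tags in the knockout libraries and to 904, 1022 and 1132 in the controls. Six3, a forebrain factor also active in the pouch, was at 79.1 and 20.9 tags in the knockout libraries and 45.5, 54.5 and 60 in the controls. Mesenchyme markers summed to 832 and 591 tags on that scale in the knockout libraries and to 1003, 1090 and 1011 in the controls. Among them the collagen gene Col3a1 was at 596 and 182 tags in the knockout libraries and 277, 554 and 433 in the controls, and the factor Foxc1 at 47.3 and 17.3 tags against 17.3, 30 and 23.6. With background subtracted and TMM factors, both lists were below every control in both knockout libraries. In tags they were not. The infundibulum and hypothalamus list summed to 1095 and 1486 tags in libraries 13 and 16, against 726, 1333 and 1153 in the controls. The mesenchyme list summed to 1395 and 1025 tags, against 723, 1303 and 998. The part of both lists in the levels of Tshr and Cga was not tested.

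In the fit across all genes, no gene passed between the genotypes, in either direction. With limma, 0 of 19313 genes were called higher and 0 lower at an adjusted p under 0.05 (0% each), 5634 (29.2%) being higher and 4 (0.0207%) lower at an unadjusted p under 0.05. The quasi-likelihood test of edgeR also called 0 genes, with 457 at an unadjusted p under 0.05, and DESeq2 called 25 (2.51% of those it gave an adjusted p), all lower. It gave none of the 9 hormone and receptor genes an adjusted p. Because the genes were chosen with values of this contrast known, only sizes are given for them. Over all tested genes the median log2 change was 0.97, and changes are given relative to it. The 8 genes in the fit had a median relative change of 0.27, with 6 above and 2 below the median gene. The values were 1.63 for Prl, 1.10 for Trhr, 0.79 for Gnrhr, 0.44 for Crhr1, 0.09 for Fshb, 0.08 for Ghrhr, -0.34 for Tshr and -0.37 for Tshb. The 3 of largest change, Prl, Trhr and Gnrhr, were above background in no library. The sign of 5 of the 8 changes depended on the knockout library left out. Without library 13 and without library 16 the change was 0.37 and -1.20 for Tshr, 1.05 and -1.04 for Ghrhr, 1.05 and -0.31 for Crhr1, 1.47 and -0.03 for Gnrhr, and -0.38 and 0.41 for Fshb.

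**Figure D4:**
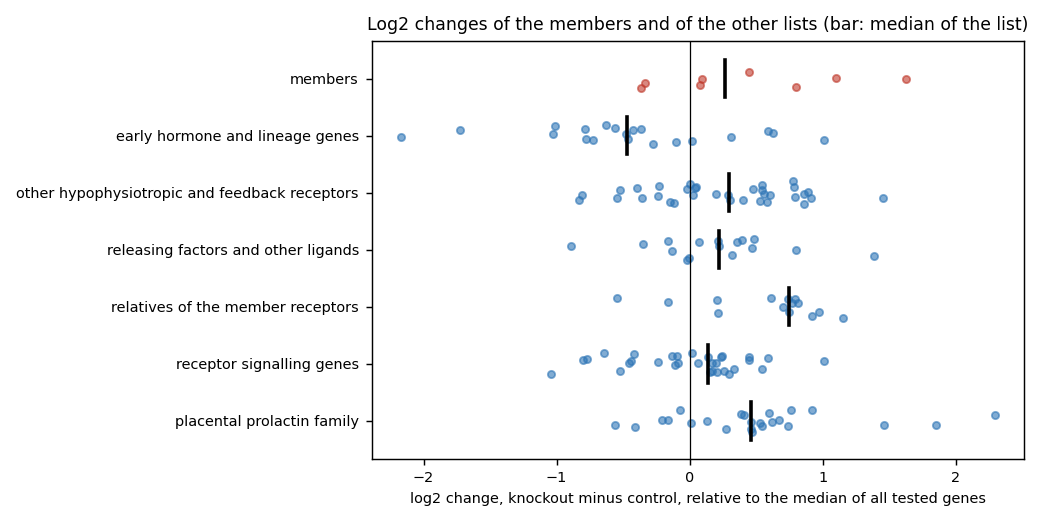
Log2 change, knockout minus control, relative to the median of all tested genes for the hormone and receptor genes (members, red) and for 6 other gene lists (blue), 1 point a gene, with the median of each list as a black bar. The early hormone and lineage genes have a median of -0.47, and the other lists drawn have medians from 0.14 to 0.74.

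Genes that work with the hormones and receptors were followed as lists, and in every list 0 genes were called higher and 0 lower with limma. The 20 early hormone and lineage genes had a median relative change of -0.47, with 5 above and 15 below the median gene. That was not particular to them. The pouch markers, which share genes with this list, were at -0.47, the mesenchyme markers at -0.67 and the infundibulum and hypothalamus markers at -0.96. Thyroid and neuron markers were at 0.70 and 0.04. Of the 20, 13 were above background in all 5 libraries. The pouch gene Six6 was at 283 and 54.5 tags in libraries 13 and 16, against 71.8, 154 and 119 in controls 9, 10 and 12.

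Of 21 measured releasing factors and other ligands, a list that also holds ligands of other receptors, 10 were above background in no library and 2 in all 5. The list's median relative change was 0.22 over 16 tested genes. Inha, the inhibin alpha subunit, was at 15.5 and 9.09 tags in the knockout libraries and 10, 11.8 and 11.8 in the controls. Trh, which encodes thyrotropin-releasing hormone, was at 20 and 6.36 tags in the knockout libraries and 1.82, 3.64 and 2.73 in the controls. In library 13 its ratio to background was 23.7, whereas its receptor gene Trhr was at 1.04 there.

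Other receptors for hypothalamic and feedback signals were present more often. Of 35 measured genes, 13 were above background in all 5 libraries, 20 in at least 3 and 4 in none. Over all genes outside the background set, 52.5% were above it in all 5 libraries and 69.4% in at least 3. The median relative change of the list was 0.29, with 22 above and 12 below the median gene. Bmpr1a, a receptor for bone morphogenetic proteins that act on the early pouch, was at 590 and 285 tags in the knockout libraries and 246, 441 and 452 in the controls. Galr3, a galanin receptor gene, was at 55.5 and 50 tags against 20.9, 41.8 and 29.1 tags in the controls.

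Relatives of the receptors and the enzymes beneath them differed in detection. The 14 measured relatives had a median relative change of 0.74, with 12 above and 2 below the median gene, and 12 of 14 were above background in library 16, compared with 8 in library 13 and 8, 7 and 4 in controls 9, 10 and 12. Lgr4, a receptor for R-spondins, led them with 1067 and 333 tags in the knockout libraries and 258, 516 and 654 in the controls, and Pth1r, the parathyroid hormone receptor gene, had 32.7 and 69.1 tags against 23.6, 20 and 18.2. Genes of the signalling pathways below the receptors were above background in all 5 libraries for 28 of 31, with a median relative change of 0.14. Gnas, which encodes the stimulatory G protein alpha subunit, was at 1609 and 602 tags in the knockout libraries and 565, 971 and 885 in the controls, and Prkar1a, a regulatory subunit of protein kinase A, at 441 and 141 tags against 199, 350 and 260.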

How the data were processed

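RNA was measured in 2 knockout and 3 control pituitaries. Per the labels' protocols, ribosomal RNA was removed with Ribo-Zero and strand-specific ScriptSeq v2 libraries were sequenced. Bowtie2, HOMER and edgeR and the build mm9 are named, without roles or versions, per the submitters' processing notes. The authors deposited a signal, scaled to 10000000 tags a library per the file headers, for 21022 regions that span introns and exons. The longest region was kept for each name. Every value was a whole multiple of 10/11 tags within 0.01 reads (100.00% of values), so reads were recovered. Of 11000000 tags in each library's total, 4480809 to 6143263 reads lay over the listed genes, Rn45s included. RefSeq genes on the plus and minus strands had median levels of 1.45 and 1.44 tags per kilobase, and the use of strand in counting was not given in the sources used here.

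Genotypes were compared with limma 3.58.1 under R 4.3.3, on log2(value + 1) and with a variance trend, over genes with a mean of at least 1, Benjamini-Hochberg adjusted at 0.05. Changes on that scale understate those of low genes. On the recovered reads, edgeR 4.0.16 and DESeq2 1.42.0 were alternatives. Other alternatives were pseudocounts of 0.5 and 5, filters, TMM factors, background subtraction with a floor of 0, other background regions, a 99% interval and leaving out each library. The fits were tested on simulated data, in which libraries differed only in depth, in the altered genes and by a shared level of random variation. Background density differed between the real libraries, so the simulation does not show how the fits perform on them. Libraries of a group differed beyond counting error (chi-square of 9.1 or more per degree of freedom). The genes and lists were chosen with earlier results of these data known. From each other list described the text names the called genes or else the 2 of highest level per kilobase. It also names the 3 nearest profiles of genes above background in at least 3 libraries. Outside that rule, Pou1f1, Cga, Fshr, Lhcgr, Cep128, Foxe1 and Itgb1 were named after their values were seen. Sequences are RefSeq's on GRCm38.p6, and no coordinates were converted between builds.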

Additional observations from a re-analysis of the deposited data

How the results depend on the processing

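The count of called genes was 0 with limma under every alternative run, including each library left out. It was 25 with DESeq2, which assigned an adjusted p to 996 genes. With the quasi-likelihood test, run without a knockout library after the data were seen, it was 7945 without library 13 (83 of them in the other lists, and Prl, Trhr and Crhr1 of the hormone and receptor genes, all higher) and 3 without library 16 (1 in the other lists). Leaving 1 knockout library assumes that it varies as the controls do. Without library 13 the quasi-likelihood test covered 17864 genes, 7 of them hormone and receptor genes. A call there was thus not particular to Prl, Trhr and Crhr1, and Prl and Trhr were above background in no library. The median relative log2 change of the hormone and receptor genes was 0.27. It was 0.46 over the 5 genes that averaged 5 tags or more and 0.54 over the 4 genes in the quasi-likelihood test, fewer genes being tested in each. It ran from -0.17 to 1.05 with single libraries left out in limma, from -0.81 to 1.10 in the quasi-likelihood test, and was -0.95 with background subtracted, TMM factors and no library 16; the cause was not tested. The count of values above background was 11. It was 9 to 13 under the planned choices of background other than the 95th percentile of single regions, and 8 with a 99% interval. With that percentile it was 1, Tshr in control 12. With the placental prolactin family or with Fshr and Lhcgr as background, both added after the data were seen, the counts were 16 and 10. No paired analysis was possible because the groups share no replicate numbers. A gene with a few reads expected from background cannot show a small change at this depth.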
